A study of Mus musculus with 9 samples.

Results

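The heat shock chaperones described here are 10 genes of the HSP70, HSP90, HSP60 and HSP10, HSP110 and HSP40 families. They were picked by gene symbol, as constitutive, inducible and mitochondrial heat shock genes. No measured value entered this rule, but earlier results of these data were known when the genes were chosen. All 10 were found among the 20368 genes of the expression table, and all 10 were among the 9543 genes that reached 1 FPKM in at least 3 libraries and were tested. Of these, 7 encode cytosolic proteins (Hspa8, Hspa1a, Hspa1b, Hsp90aa1, Hsp90ab1, Hsph1 and Dnaja1) and 3 encode mitochondrial proteins (Hspa9, Hspd1 and Hspe1). Levels are given in FPKM, which are fragments divided by transcript length and by a depth factor per library, so that levels can be compared between genes.

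The RNA came from sorted CD71+Ter119+ spleen cells of C57BL/6 mice aged 4 weeks. CD71 is the transferrin receptor and Ter119 is a surface antigen of the red cell lineage, and the submitters call this gate erythroblast population II. There were 3 knockout libraries (KO, Dhh-/-), 3 heterozygous libraries (HET, Dhh+/-) and 3 wildtype libraries (WT), where Dhh encodes the secreted ligand Desert hedgehog. The labels do not say how the Dhh allele was made, or whether each library came from a mouse of its own, so p-values measure only how much these libraries vary. In sorted bulk RNA, fewer cells of a type and less RNA per cell cannot be told apart.

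Chaperones bind unfolded or partly folded proteins, and many are induced when proteins misfold. The transcription factor HSF1 then binds heat shock elements, which are inverted repeats of the letters GAA, in front of the genes. HSP70 proteins bind and release clients in an ATP cycle, J-proteins such as Dnaja1 deliver clients and start ATP hydrolysis, and HSP110 proteins such as Hsph1 exchange the nucleotide. In red cell precursors HSP70 is known, from human cells, to shield the factor GATA1 from caspase-3, and HSC70, the product of Hspa8, is known from reticulocytes to bind the transferrin receptor that leaves the cell in exosomes.

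The promoters are shown because HSF1 acts through heat shock elements in this stretch of its target genes. RefSeq promoter windows on GRCm38.p6 (the mm10 build), from 250 bases before to 50 after a start site, were found for 6 of the 10 genes, with 10 windows in all, and 4 of these are printed 5′ to 3′ on the gene's strand. Capitals mark a pair of alternating GAA units spaced by 2 bases, GAANNTTC or TTCNNGAA, together with any further unit in the same spacing. The pair reads the same on both strands, and a longer run contains the pair. The windows are chr17:34959189-34959488 on the minus strand for Hspa1b, chr17:34972107-34972406 on the minus strand for Hspa1a, chr1:55087898-55088197 on the plus strand for Hspe1 and chr5:149636287-149636586 on the minus strand for Hsph1.
Hspa1b: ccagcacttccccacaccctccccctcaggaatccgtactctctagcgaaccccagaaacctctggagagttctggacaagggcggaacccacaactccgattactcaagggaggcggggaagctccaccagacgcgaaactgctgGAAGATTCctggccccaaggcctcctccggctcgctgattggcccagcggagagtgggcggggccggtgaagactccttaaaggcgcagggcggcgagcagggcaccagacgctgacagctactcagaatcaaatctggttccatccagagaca
Hspa1a: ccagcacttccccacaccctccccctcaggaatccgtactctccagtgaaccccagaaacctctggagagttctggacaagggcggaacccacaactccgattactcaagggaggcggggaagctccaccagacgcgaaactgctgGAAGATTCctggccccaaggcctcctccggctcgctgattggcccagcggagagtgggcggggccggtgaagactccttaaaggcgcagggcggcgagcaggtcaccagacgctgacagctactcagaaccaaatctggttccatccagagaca
Hspe1: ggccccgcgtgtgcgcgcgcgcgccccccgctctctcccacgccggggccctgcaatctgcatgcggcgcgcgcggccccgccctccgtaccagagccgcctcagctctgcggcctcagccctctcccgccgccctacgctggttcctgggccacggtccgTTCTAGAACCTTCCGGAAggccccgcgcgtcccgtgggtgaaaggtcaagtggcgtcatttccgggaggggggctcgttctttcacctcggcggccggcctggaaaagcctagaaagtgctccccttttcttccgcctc
Hsph1: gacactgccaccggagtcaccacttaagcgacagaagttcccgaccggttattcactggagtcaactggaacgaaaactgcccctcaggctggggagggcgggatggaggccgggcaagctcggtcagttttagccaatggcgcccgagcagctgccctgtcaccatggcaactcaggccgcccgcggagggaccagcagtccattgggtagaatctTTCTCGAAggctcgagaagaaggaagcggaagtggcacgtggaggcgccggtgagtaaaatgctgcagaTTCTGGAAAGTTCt

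The Hspa1b and Hspa1a windows had the same base at 296 of 300 positions (98.7%). The differences were T44C, C47T, G249T and T276C, with the Hspa1b base first, the position counted from 1 at the window's 5′ end, and the Hspa1a base last. None of the 4 lay in the capital letters, which stood at -104 to -97 in both genes, counted with the start base as 0. The Hspe1 window held 4 alternating units at -89 to -72. Hspe1 and Hspd1 lie head to head, and 1 of the 2 Hspd1 windows shares 285 bases with the Hspe1 window on the opposite strand, so the same 4 units stood at -144 to -127 of Hspd1. Hsph1 held a pair at -33 to -26 and 3 units at 36 to 48 of the printed window. Dnaja1 held a pair at -124 to -117 in 1 of its 3 windows.

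A pair of units was found in 7 of the 10 windows and in all 6 genes, against 15.1% of the 32851 promoters in the table and 17.0% of its 27025 genes. At least 3 units in a row stood in 4 windows of 3 genes (Hspd1, Hspe1 and Hsph1), against 0.603% of all promoters. These windows and genes are not separate sequences, so the counts hold the same letters more than once. Hspa1a and Hspa1b are near copies, Hspd1 and Hspe1 share 1 stretch, and the Hsph1 windows overlap each other. The letters describe the sequence and are not a measured binding site. The map of heat shock element letters places them along the windows.

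**Figure D1:**
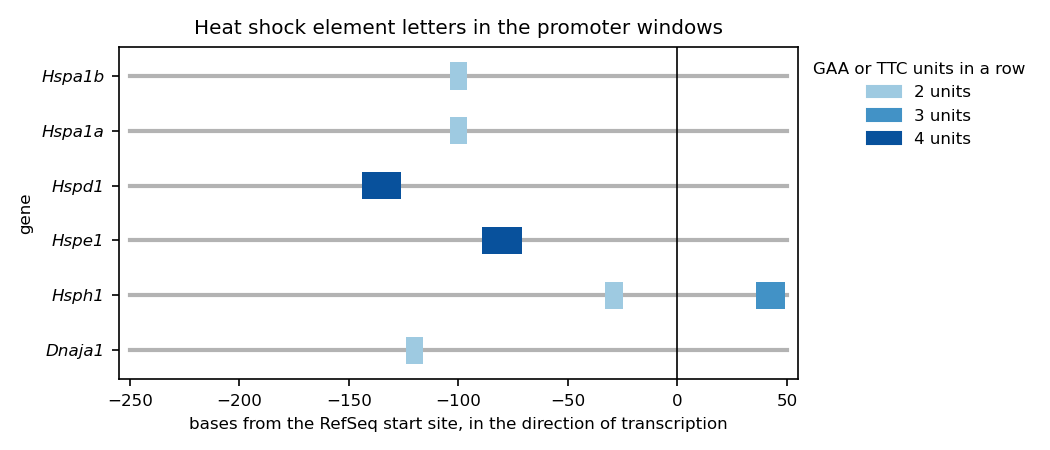
Each grey line is 1 RefSeq promoter window per gene, in the direction of transcription, with the start site at 0 (horizontal axis, bases). Only windows that hold the letters are drawn, and Hspd1 and Dnaja1 also have windows without them. Boxes mark runs of 2, 3 or 4 alternating GAA units; Hspd1 and Hspe1 carry 4 units, Hsph1 carries 2 and 3, and Hspa1b, Hspa1a and Dnaja1 carry 2.

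The reads recovered from the FPKM numbered 7052111 to 14231427 per library. They fell into a shallower set (KO replicate 2, HET replicate 2 and WT replicates 1 and 2, at most 9657192 reads) and a deeper set (the other libraries, at least 13052813 reads). Erythroid markers were high in every library: 11 of the 12 listed were found and summed to between 14500 and 27052 FPKM, led by the beta-globin gene Hbb-bs and the heme enzyme gene Alas2. Markers of other blood cells were also present, and none was at 0 in every library. The 9 macrophage markers summed to 339 to 1224 FPKM in KO, 597 to 687 FPKM in HET and 92.8 to 1054 FPKM in WT libraries. The 8 neutrophil markers summed to 403 to 1460 FPKM in KO, 251 to 738 FPKM in HET and 315 to 1588 FPKM in WT libraries. The 5 megakaryocyte markers found, of 6, summed to between 38.8 and 61.4 FPKM in all libraries. No gene of these lists passed the limma test described below. WT replicate 3 stood apart: its macrophage sum and its sum of 8 B cell markers (70.6 FPKM) were the lowest of the 9 libraries, and its 8 T cell and natural killer markers summed to 1.38 FPKM, against 53.1 to 149 FPKM in the other libraries. In that library Pax5, Cd3d and Cd3g were at 0.

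Together the 10 chaperone genes gave 809 to 1082 FPKM per library, or 0.207% to 0.267% of all FPKM. Their sum averaged 949 ± 40.8 FPKM in KO, 922 ± 135 FPKM in HET and 993 ± 113 FPKM in WT libraries (SD, n = 3 each). By mean FPKM over the 9 libraries the order was Hspa8, Hsp90aa1, Hsp90ab1, Hspd1, Hspa1b, Hspa9, Hspe1, Hspa1a, Dnaja1 and Hsph1. The step between neighbours exceeded the larger SD at 3 places, from Hspa8 to Hsp90aa1, from Hsp90ab1 to Hspd1 and from Dnaja1 to Hsph1. The other neighbours did not differ beyond their spread. Thus 3 cytosolic genes near or above 200 FPKM stood above 7 genes with means between 13.7 and 42.2 FPKM.

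**Figure D2:**
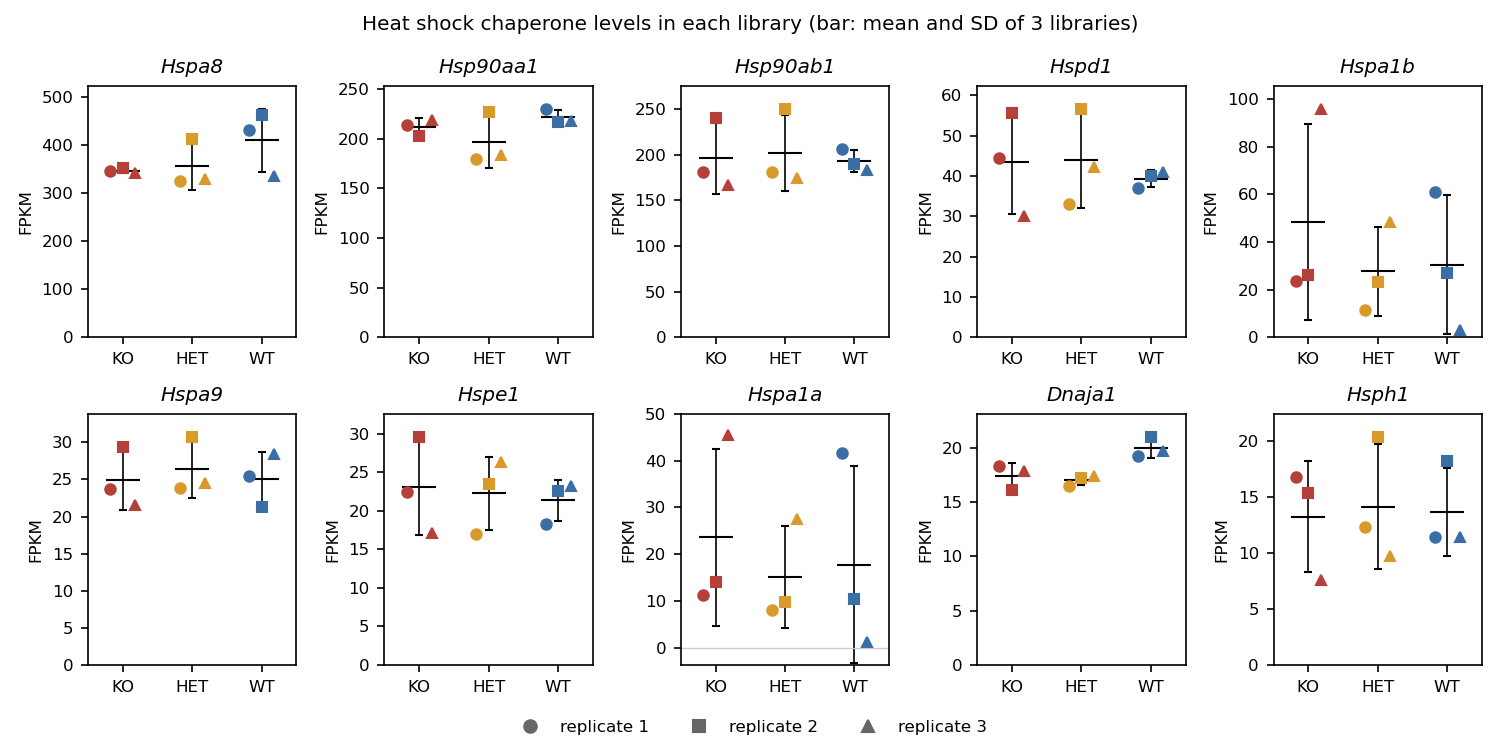
FPKM of each gene (vertical axes, each with its own range and starting at or below 0) in the 3 KO, 3 HET and 3 WT libraries, with the replicate number as the marker shape and the mean and SD as bars. Dnaja1 is the gene whose WT libraries all lie above the KO and HET libraries, while Hspa1a and Hspa1b span over 30-fold between libraries.

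Hspa8 encodes HSC70, the constitutive cytosolic HSP70 (chromosome 9, 40800984 to 40810087, plus strand, GENCODE M21 on mm10, as for the positions that follow). It was the most abundant of the 10, ranked 179 of 20368 genes by mean level. It had 347, 352 and 341 FPKM in KO libraries, 326, 412 and 330 FPKM in HET libraries, and 431, 463 and 336 FPKM in WT libraries (replicates 1, 2 and 3, here and below). WT replicates 1 and 2 and HET replicate 2 were the 3 highest, and the genotypes overlapped. The level averaged 347 ± 5.39 FPKM in KO, 356 ± 48.97 FPKM in HET and 410 ± 65.8 FPKM in WT libraries (SD, n = 3 each).

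The level of Hspa8 also moved with depth. Every shallower library was above every deeper one, at 352 to 463 FPKM in the 4 shallower and 326 to 347 FPKM in the 5 deeper libraries. That order also held for Hsp90ab1, with 190 to 251 FPKM in the shallower and 167 to 184 FPKM in the deeper libraries. These were 2 of the 10 chaperones, against 5.66% of all tested genes with every shallower library higher. In both genes the nearest libraries of the 2 sets overlapped within counting error. For Hspa8 the 95% Poisson intervals on recovered reads were 344 to 361 FPKM in KO replicate 2 and 340 to 354 FPKM in KO replicate 1. For Hsp90ab1 they were 184 to 195 FPKM in WT replicate 2 and 179 to 189 FPKM in WT replicate 3. The summed erythroid markers were also higher in every shallower library, at 24054 to 27052 FPKM in the shallower and 14500 to 18334 FPKM in the deeper libraries, although 3 of the 11 genes did so singly. The summed T cell and natural killer markers were at 82.9 to 149 FPKM in the shallower and 1.38 to 58.5 FPKM in the deeper libraries, and 7 of the 8 genes did so singly. The part of depth and of these cells in the Hspa8 values cannot be told apart here. Within the shallower set the KO library was lower than the 2 WT libraries by a log2 difference of -0.34 in Hspa8, while within the deeper set the 2 KO libraries and the WT library differed by 0.034. Over all libraries the log2 difference of Hspa8 was -0.23 for KO minus WT and -0.20 for HET minus WT. With depth as a term in the limma fit it was -0.18 and -0.16, and with quantile normalization -0.15 and -0.023. Single libraries also moved it: without WT replicate 3 it was -0.36 and -0.33 (unadjusted limma p 0.0242 and 0.0342, adjusted p 0.978 and 0.992), and without WT replicate 2 it was -0.13 and -0.11. Without HET replicate 2, HET minus WT was -0.31.

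Hspa1a and Hspa1b encode the stress-inducible cytosolic HSP70 and are neighbours on the minus strand of chromosome 17 (34969190 to 34972156 and 34956436 to 34959238). Hspa1b had 23.4, 26.1 and 96.0 FPKM in KO libraries, 11.6, 23.2 and 48.3 FPKM in HET libraries, and 61.2, 27.0 and 3.03 FPKM in WT libraries. Hspa1a had 11.3, 14.0 and 45.5 FPKM in KO libraries, 8.0, 9.75 and 27.6 FPKM in HET libraries, and 41.6, 10.4 and 1.36 FPKM in WT libraries. Both genes were highest in KO replicate 3 and lowest in WT replicate 3, and all genotypes overlapped. The lowest values rest on 114 recovered reads for Hspa1b (95% Poisson interval 94.0 to 137) and 51 for Hspa1a (38.0 to 67.1), so the low end is measured, within counting error.

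The highest library exceeded the lowest by 31.6-fold in Hspa1b and by 33.4-fold in Hspa1a. Among the 9543 tested genes their SD over the 9 libraries, on the log2(FPKM + 1) scale, ranked 11 and 13 from the top. The other 8 chaperones spanned 1.28-fold (Hsp90aa1) to 2.70-fold (Hsph1). The 2 copies kept similar proportions, with Hspa1b at 1.45 to 2.59 times Hspa1a (median 2.08). Of the 50-base windows in their transcripts, 62.3% of Hspa1b and 60.4% of Hspa1a also occur in another annotated gene, mostly the other copy, so how reads were split between the copies is uncertain and their sum is given as well. The sum was 34.7, 40.1 and 141 FPKM in KO libraries, 19.6, 33.0 and 75.9 FPKM in HET libraries, and 103, 37.4 and 4.397 FPKM in WT libraries. The level of the constitutive Hspa8 was 2.41 times this sum in KO replicate 3 and 76.5 times in WT replicate 3.

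The genotype differences of both genes rested on single libraries. KO minus WT was 1.06 ± 0.97 for Hspa1b and 0.96 ± 0.96 for Hspa1a (log2 difference ± SE). Without WT replicate 3 these values were -0.060 and -0.11, and without WT replicate 1 they were 1.91 and 1.98. HET minus WT was 0.37 for Hspa1b and 0.42 for Hspa1a with all libraries, and -0.76 and -0.65 without WT replicate 3. With all libraries the HET mean in FPKM was below the WT mean for both genes, opposite in sign to the difference of log2 values. KO minus WT for the summed level was -0.62 in the shallower set (1 library against 2) and 3.72 in the deeper set (2 against 1, the WT library being replicate 3). Hspa1a and Hspa1b therefore gave no direction for either genotype.

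Marker lists for other cells and for cell handling are set beside the inducible pair because stress genes respond to tissue dissociation. The 15 immediate early genes summed to 1144, 905 and 1331 FPKM in KO libraries, 1135, 849 and 1090 FPKM in HET libraries, and 2079, 961 and 1220 FPKM in WT libraries. Their sum was highest in WT replicate 1, where the inducible pair was second highest. Of the 15 genes, 13 were highest in WT replicate 1. In WT replicate 3, where the pair was lowest, the genes were divided. The sum there was the third highest and rested on Ppp1r15a (617 FPKM), Dusp1 (195 FPKM), Btg2 (158 FPKM) and Jund (135 FPKM), while 6 of the 15 genes (Fos, Jun, Junb, Zfp36, Nr4a1 and Klf6) were at their lowest in that library, as the pair was. Fos had 48.0, 68.8 and 110 FPKM in KO libraries, 88.8, 43.2 and 102 FPKM in HET libraries, and 252, 39.2 and 30.8 FPKM in WT libraries. B cell markers summed to 276, 704 and 536 FPKM in KO libraries, 507, 528 and 648 FPKM in HET libraries, and 1117, 386 and 70.6 FPKM in WT libraries. The B cell and macrophage sums were lowest in WT replicate 3, as the pair was, and KO replicate 3, the highest for the pair, was not the highest for either. Of the immediate early genes, those other than Ppp1r15a and Btg2 were named after their values were seen. The part of these cells and of handling in the Hspa1a and Hspa1b values was not tested.

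**Figure D3:**
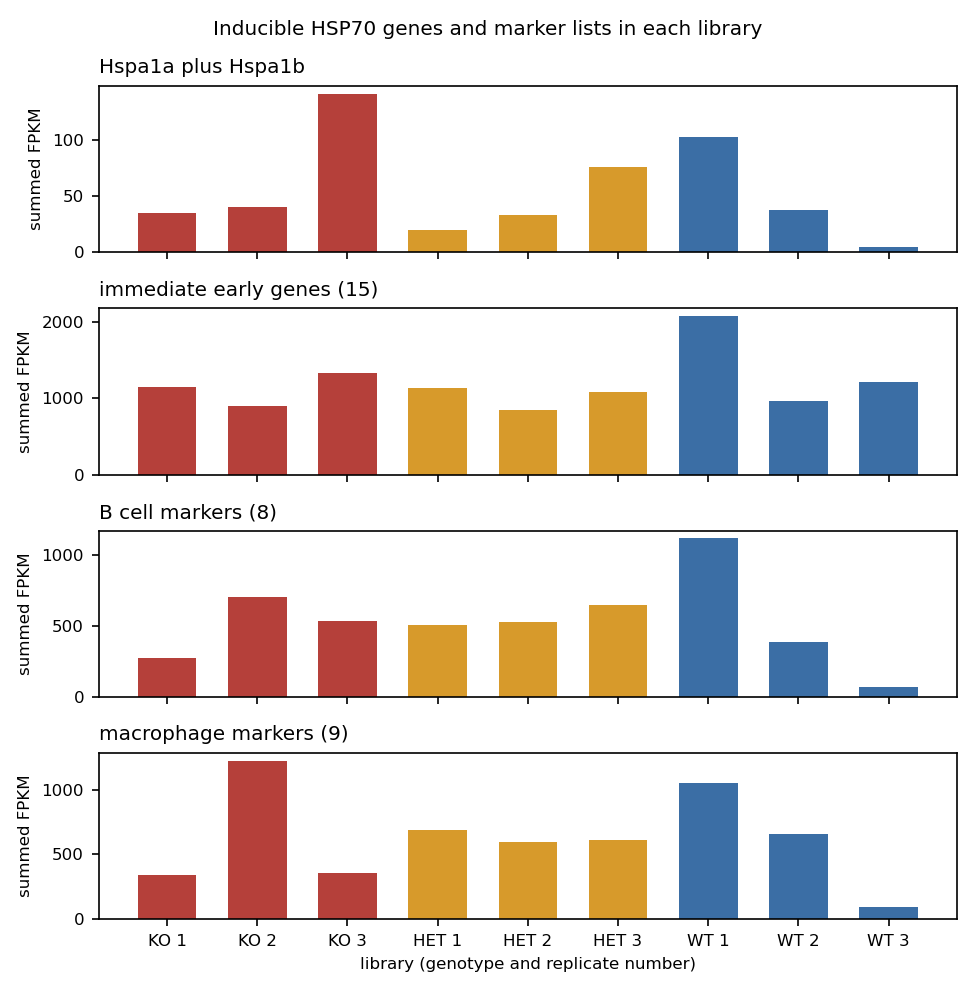
Summed FPKM (vertical axes, from 0) of Hspa1a plus Hspa1b, of 15 immediate early genes, of 8 B cell markers and of 9 macrophage markers in each of the 9 libraries. WT replicate 3 is the lowest bar in the Hspa1, B cell and macrophage panels, while KO replicate 3 is the highest only in the Hspa1 panel.

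The genes whose pattern over the 9 libraries was most like the Hspa1a plus Hspa1b sum were ranked by Pearson r of log2(FPKM + 1). They were Bsn (0.91), which encodes the synaptic scaffold bassoon, Jchain (0.90), the joining chain of secreted antibodies, Cd40 (0.89), a receptor of B cells and other antigen-presenting cells, Crip1 (0.89), a LIM domain protein gene, and Ly6c2 (0.89), a surface antigen of monocytes and other white cells. Jchain was lowest in WT replicate 3, at 1.57 FPKM, and reached 76.6 FPKM in WT replicate 1. Cd40 was also lowest in WT replicate 3, at 0.0444 FPKM. These genes were taken as the highest of all tested genes, so the r values describe the choice and carry no test, and all share the low WT replicate 3. For Hspa8 the closest were Suds3 (0.91), Cat (0.91), the catalase gene, Pramef8 (0.91), Fam46c (0.90) and Usp15 (0.90), a deubiquitinase gene. Cat had 514, 639 and 526 FPKM in KO libraries, 412, 705 and 427 FPKM in HET libraries, and 771, 746 and 452 FPKM in WT libraries, and the shallower libraries were again the highest.

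Hsp90aa1 and Hsp90ab1 encode the inducible and the constitutive cytosolic HSP90, which fold kinases and steroid receptors (chromosome 12, 110690605 to 110702728, and chromosome 17, 45567775 to 45573271, both on the minus strand). Hsp90aa1 had 214, 202 and 219 FPKM in KO libraries, 180, 227 and 184 FPKM in HET libraries, and 230, 217 and 218 FPKM in WT libraries. Its span of 1.28-fold was the smallest of the 10, and the genotypes overlapped. Hsp90ab1 had 182, 241 and 167 FPKM in KO libraries, 182, 251 and 175 FPKM in HET libraries, and 206, 190 and 184 FPKM in WT libraries. Its 2 highest libraries were HET replicate 2 and KO replicate 2. The ratio of Hsp90aa1 to Hsp90ab1 lay between 0.841 in KO replicate 2 and 1.31 in KO replicate 3, so the inducible gene was not consistently the higher of the pair.

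The mitochondrial chaperones sit in the matrix. Hspa9 encodes mortalin, the mitochondrial HSP70 that drives protein import and takes part in iron-sulfur cluster assembly (chromosome 18, 34937414 to 34954357, minus strand). It had 23.6, 29.3 and 21.6 FPKM in KO libraries, 23.8, 30.8 and 24.5 FPKM in HET libraries, and 25.5, 21.2 and 28.4 FPKM in WT libraries. HET replicate 2 and KO replicate 2 were the highest, and the means differed by less than the SD of any genotype.

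Hspd1 encodes HSP60, the chaperonin barrel, and Hspe1 encodes HSP10, its lid (chromosome 1, 55077835 to 55088243 on the minus strand and 55088132 to 55091307 on the plus strand). Hspd1 had 44.5, 55.6 and 29.9 FPKM in KO libraries, 32.9, 56.6 and 42.2 FPKM in HET libraries, and 37.1, 39.9 and 41.0 FPKM in WT libraries. Hspe1 had 22.5, 29.7 and 17.2 FPKM in KO libraries, 17.0, 23.5 and 26.3 FPKM in HET libraries, and 18.3, 22.6 and 23.2 FPKM in WT libraries. For both genes the WT libraries lay inside the range of the KO libraries. The 2 genes, which share the promoter stretch printed above, kept a ratio of Hspd1 to Hspe1 between 1.61 and 2.41. The 3 mitochondrial genes together gave 91.3 ± 23.0 FPKM in KO, 92.6 ± 18.6 FPKM in HET and 85.8 ± 6.13 FPKM in WT libraries (SD, n = 3 each).

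Hsph1, the HSP110 gene (chromosome 5, 149614287 to 149636376, minus strand), was the least abundant. It had 16.8, 15.4 and 7.56 FPKM in KO libraries, 12.3, 20.4 and 9.72 FPKM in HET libraries, and 11.5, 18.2 and 11.4 FPKM in WT libraries. Its lowest library was KO replicate 3, the one with the highest Hspa1a and Hspa1b, and the genotypes overlapped.

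Dnaja1, the J-protein gene (chromosome 4, 40722150 to 40737149, plus strand), was the one chaperone whose WT libraries all lay above the others. It had 18.3, 16.1 and 17.8 FPKM in KO libraries, 16.5, 17.3 and 17.4 FPKM in HET libraries, and 19.3, 21.0 and 19.7 FPKM in WT libraries. The lowest WT library, replicate 1 (95% Poisson interval 18.1 to 20.5 FPKM), and KO replicate 1 (17.4 to 19.3 FPKM) overlapped within counting error. The means were 17.4 ± 1.15 FPKM in KO, 17.0 ± 0.478 FPKM in HET and 20.002 ± 0.926 FPKM in WT libraries (SD, n = 3 each). The log2 difference, from log2(FPKM + 1), was -0.19 for KO minus WT (95% interval -0.43 to 0.056) and -0.22 for HET minus WT (-0.46 to 0.026). Both comparisons use the same WT libraries. Neither passed the threshold in limma, with adjusted p-values of 0.9997 and 0.9999 after Benjamini-Hochberg adjustment. Because every WT library lay above the others, the sign within each depth set was negative by construction. KO minus WT was -0.30 in the shallower set (1 library against 2) and -0.12 in the deeper set (2 against 1). HET minus WT was -0.21 in both sets. Of all tested genes, 0.513% (49 genes) had every KO and HET library below every WT library.

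Across libraries the chaperones did not move as 1 block. Hspd1, Hspa9, Hsp90ab1 and Hsph1 were each highest in HET replicate 2, and Hspd1, Hsp90ab1 and Hsph1 were lowest in KO replicate 3. Hspa1a and Hspa1b were highest in KO replicate 3. On the log2(FPKM + 1) scale KO replicate 3 deviated from the gene's mean by 1.86 in Hspa1b and 1.69 in Hspa1a, against -0.72 in Hsph1, -0.45 in Hspd1, -0.33 in Hspe1, -0.23 in Hsp90ab1 and -0.22 in Hspa9. Thus the highest inducible HSP70 came in the library with the lowest HSP60 and HSP110, and the Pearson r of Hspa1a with these genes over the 9 libraries was -0.29 for Hspd1 and -0.40 for Hsph1. Over 9 libraries of 3 genotypes and unequal depth these are weak and are given as a description.

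**Figure D4:**
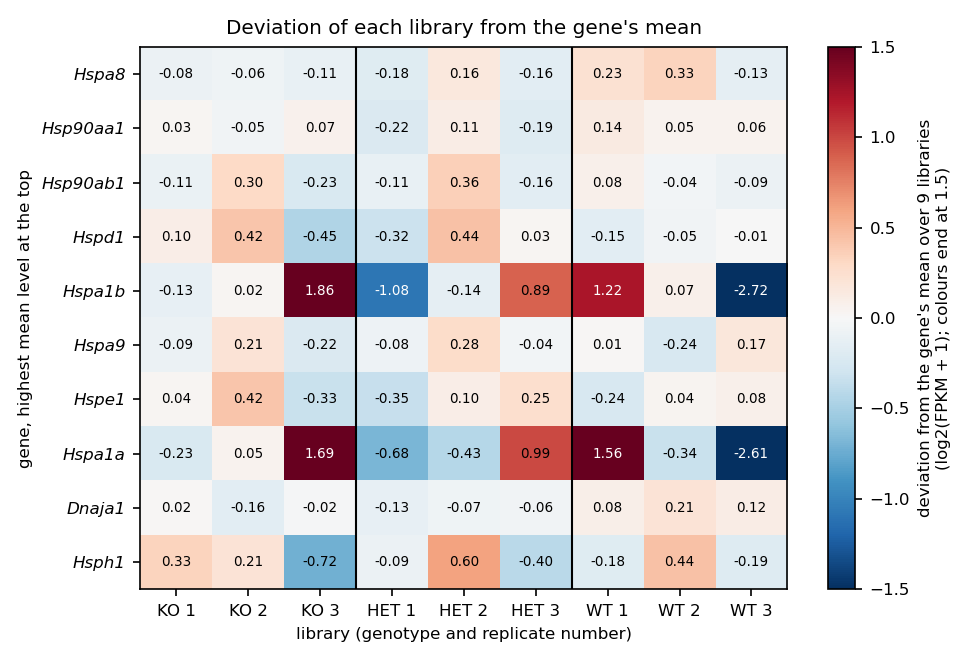
Deviation of each library (columns, genotype and replicate number) from the gene's mean over the 9 libraries (rows, highest level at the top), in log2(FPKM + 1) units, with colours ending at 1.5. Hspa1b and Hspa1a run from -2.72 and -2.61 in WT replicate 3 to 1.86 and 1.69 in KO replicate 3, while the other 8 genes stay between -0.72 and 0.60.

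The genotype comparisons ask whether loss of 1 or both Dhh alleles went with a change in chaperone RNA. None of the 10 genes passed an adjusted p of 0.05 (limma, Benjamini-Hochberg over 9543 genes) in KO minus WT, in HET minus WT or in KO minus HET, and the share of all tested genes called was 0.0% in each. At an unadjusted p below 0.05 there were 43, 113 and 56 genes over the whole table in these 3 comparisons, none of them a chaperone, and 38, 91 and 53 genes when voom was used on recovered reads. The lowest unadjusted limma p among the chaperones was 0.115 in KO minus WT and 0.0740 in HET minus WT, both in Dnaja1, and 0.364 in KO minus HET, in Hsp90aa1.

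By sign, 5 of 10 chaperones were higher and 5 lower in KO than in WT, with a median log2 difference of -0.0033, against 0.0088 over all tested genes. In HET against WT 7 were higher and 3 lower, with a median of 0.044 against -0.0020. In KO against HET 5 were higher and 5 lower, with a median of 0.00069 against 0.0037. No chaperone had every KO library above every WT library, against 1.08% of tested genes, and 1 (Dnaja1) had every KO library below, against 1.4%. No chaperone had every HET library above every WT library, against 1.29%, and 1 (Dnaja1) had every HET library below, against 3.07%. Between KO and HET no chaperone was separated in either direction, against 2.61% of genes with KO higher and 1.88% with KO lower.

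The intervals show what these libraries could resolve. For Hspa8, KO over WT lay between 0.675 and 1.08 times (95% interval of the limma difference, back-transformed), and for Hsp90aa1 between 0.794 and 1.15 times. For Dnaja1 the interval was 0.741 to 1.04 times. The mitochondrial genes were bounded between 0.729 and 1.56 times, the ends being those of Hspd1. For Hspa1a the interval reached from 0.432 to 8.81 times and for Hspa1b from 0.459 to 9.52 times, so changes of several-fold lie inside both intervals. A p that misses the threshold does not show that the levels were equal.

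**Figure D5:**
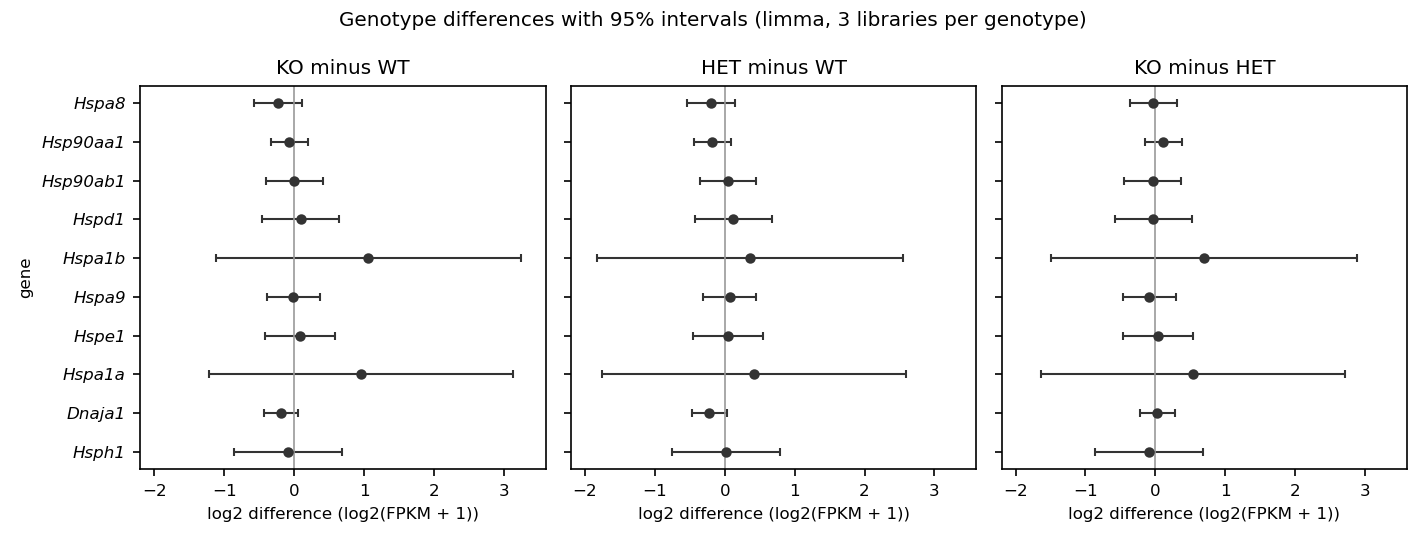
Log2 differences (points, horizontal axes, log2(FPKM + 1) scale) with 95% intervals (bars) from limma for KO minus WT, HET minus WT and KO minus HET, 1 row per gene. Every interval crosses 0, and those of Hspa1b and Hspa1a are the widest, from -1.12 to 3.25 and from -1.21 to 3.14 in KO minus WT.

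Other chaperone genes were read from lists chosen by function. None of their tested members passed the limma threshold in any comparison, and none had an unadjusted p below 0.05. The cytosolic cochaperone list had 24 of 28 genes tested, with 14 higher and 10 lower in KO than in WT (median log2 difference 0.0087). Its most abundant genes were Bag1, a nucleotide exchange factor of HSP70, at 156 ± 4.33 FPKM in KO, 141 ± 1.87 FPKM in HET and 155 ± 15.2 FPKM in WT libraries, and Dnajb6, a J-protein gene, at 97.5 ± 7.66, 85.0 ± 15.2 and 110 ± 24.4 FPKM in KO, HET and WT libraries (SD, n = 3 each). Dnajb1, a J-protein gene that HSF1 induces, had 59.7, 42.8 and 67.8 FPKM in KO libraries, 58.5, 49.1 and 58.9 FPKM in HET libraries, and 58.2, 55.8 and 82.7 FPKM in WT libraries. It was highest in WT replicate 3, where Hspa1a and Hspa1b were lowest. Bag3, another HSF1 target, went the other way. It was lowest in WT replicate 3 (2.16 FPKM), as Hspa1a and Hspa1b were, and highest in WT replicate 1 (4.88 FPKM). The small heat shock genes Hspb1, Cryab and Hspb8, named after their values were seen, were below 1 FPKM in every library.

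Of 9 regulators of the heat shock response, 5 were tested. Hsf1, the factor itself, had 8.82, 9.70 and 8.76 FPKM in KO libraries, 9.87, 9.65 and 7.66 FPKM in HET libraries, and 11.0, 10.01 and 7.78 FPKM in WT libraries. It was low in WT replicate 3 and HET replicate 3, and the genotypes overlapped. Hsbp1, a gene for an HSF1-binding protein, had a mean over all libraries of 18.4 FPKM. By sign 2 of the 5 were higher in KO than in WT.

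The TRiC chaperonin and prefoldin list, which folds actin and tubulin, had 13 of 14 genes tested. In KO against WT 4 were higher and 9 lower (median -0.067, against 0.0088 over all tested genes). Of the 13 genes, 10 were highest in WT replicate 3, and the signs were not recounted without that library. Cct5 averaged 123 ± 6.40, 123 ± 9.03 and 131 ± 25.5 FPKM and Pfdn5 114 ± 5.44, 106 ± 10.2 and 128 ± 21.2 FPKM in KO, HET and WT libraries (SD, n = 3 each). All 16 genes of mitochondrial protein quality control were tested, with 4 higher and 12 lower in KO than in WT (median -0.080). Of these 16 genes, 9 were highest in WT replicate 3. Hscb, a J-protein gene of iron-sulfur cluster assembly that works with Hspa9, averaged 142 ± 8.13, 120 ± 15.2 and 158 ± 35.2 FPKM, and the protease gene Afg3l2 59.6 ± 9.32, 58.4 ± 2.18 and 61.5 ± 8.79 FPKM in KO, HET and WT libraries. All 16 genes of the endoplasmic reticulum list were tested, with 10 higher and 6 lower in KO than in WT (median 0.019). Its leading genes were Calr (calreticulin), at 281 ± 21.7, 268 ± 13.6 and 271 ± 33.6 FPKM, and Hspa5 (BiP), at 195 ± 28.3, 172 ± 17.4 and 208 ± 23.5 FPKM in KO, HET and WT libraries. In HET against WT 9 of 24 cochaperones, 0 of 5 regulators, 1 of 13 chaperonin genes, 5 of 16 mitochondrial genes and 6 of 16 endoplasmic reticulum genes were higher. The median log2 differences were -0.037, -0.065, -0.074, -0.049 and -0.018 in that order, against -0.0020 over all tested genes. These signs were not recounted without WT replicate 3 either.

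The levels of several chaperones carry an uncertainty from near-identical sequences elsewhere in the genome. Of the 50-base windows of the longest Hspa8 transcript 73.2% also occur in other annotated genes, chiefly the pseudogene Gm15459. The share was 58.5% for Hsp90aa1, 44.8% for Hspd1, 36.1% for Hspe1 and 18.7% for Dnaja1. It was below 5% for Hsp90ab1 and Hspa9, at 4.49% and 4.10%, and 0% for Hsph1. The sources used here give neither the read length nor the handling of reads with several matches. The same windows apply to all 9 libraries, so comparisons between libraries of 1 gene share this limit.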

How the data were processed

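RNA sequencing of CD71+Ter119+ spleen cells gave 9 libraries, 3 per genotype. The authors deposited 1 table of FPKM values per gene and library. TopHat, Picard, DESeq2 and mm10 are named, with no version or role, per the submitters' processing notes. The sources used here do not give annotation, strand or read layout, and overlapping genes can share reads. Dividing each gene's FPKM by a step of its own gave whole reads, within 0.05, for all 14147 genes detected in 2 or more libraries. The implied library factors were the median-of-ratios size factors computed from 11276 genes. Reads recovered in this way numbered 7052111 to 14231427 per library, and Poisson intervals on them cover counting error only.

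From the FPKM, log2(FPKM + 1) was fitted with limma 3.58.1 in R 4.3.3 (a mean per genotype over 9 libraries, eBayes with trend, 2-sided) for the 9543 genes that reached 1 FPKM in 3 or more libraries. The scale understates the change of low genes. Calls needed a Benjamini-Hochberg adjusted p below 0.05. The smallest exact permutation p for 3 against 3 libraries is 0.1. Alternatives, including voom on recovered reads, number 18 per comparison. Libraries were split into depth sets by their recovered reads. The members and lists were chosen with earlier results of these data known.

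The text names the 10 members, the 2 most abundant genes of lists without calls, Hsf1, Dnajb1, Bag3, and the 5 genes with the highest r with Hspa8 and with the Hspa1 sum; other names were chosen after values were seen, and 1 gene of the regulator list is not reported here. The 12 lists hold 151 genes; Ahsp, Cct6a, Ighm, Trac and Gp1bb were not matched. Positions came from GENCODE M21 for 20028 of 20368 genes.

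Replicate numbers come from the sample titles, and no label states what they share. For replicates 1, 2 and 3, deviations of same-numbered libraries correlated at 0.20, 0.18 and 0.41 between KO and HET, which were taken as paired. They correlated at -0.57, 0.51 and 0.33 between KO and WT, and at 0.13, 0.18 and 0 between HET and WT, which were not. Same-numbered KO and HET libraries fell in the same depth set, while WT replicate 1 was in the shallower set and KO and HET replicate 1 in the deeper set. Pairing and depth therefore cannot be told apart by these correlations. The main fit used no pairing, also for KO minus HET. Replicate number entered only through the replicate block, an alternative fitted over all genotypes.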

Additional observations from a re-analysis of the deposited data

How the results depend on the processing

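No gene passed the adjusted threshold in KO minus WT, HET minus WT or KO minus HET under any of the 18 alternatives, 9 of which left out 1 library each, and so no chaperone did. Genes at an unadjusted p below 0.05 numbered 18 to 252, 62 to 354 and 29 to 499 over these alternatives. With 1 library of each replicate number per genotype, the replicate block cannot change a log2 difference (Hspa8, KO minus WT, -0.23). It can change the p-values only, and all 3 counts of calls stayed at 0. Quantile normalization turned KO minus WT to 0.0013 for Hsp90aa1 and 0.0085 for Hspa9, a depth term turned it to 0.026 for Hspa9 and 0.016 for Hsph1, and voom turned HET minus WT to -0.020 for Hsph1. The cause was not tested. The promoter share with 3 units in place of 2 was 0.603% in place of 15.1%, a longer motif by construction.

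Leaving out 1 library at a time, KO minus WT ranged over -0.15 to 0.11 for Hsp90ab1, -0.11 to 1.98 for Hspa1a, -0.060 to 1.91 for Hspa1b, -0.13 to 0.081 for Hspa9, -0.10 to 0.33 for Hspd1, -0.11 to 0.27 for Hspe1 and -0.28 to 0.25 for Hsph1. HET minus WT ranged over -0.12 to 0.14 for Hsp90ab1, -0.65 to 1.43 for Hspa1a, -0.76 to 1.22 for Hspa1b, -0.040 to 0.17 for Hspa9, -0.074 to 0.31 for Hspd1, -0.085 to 0.22 for Hspe1 and -0.27 to 0.23 for Hsph1. KO minus HET ranged over -0.0057 to 0.081 for Dnaja1, -0.20 to 0.12 for Hsp90ab1, -0.049 to 1.06 for Hspa1a, -0.088 to 0.082 for Hspa8, -0.21 to 0.027 for Hspa9, -0.23 to 0.21 for Hspd1, -0.15 to 0.23 for Hspe1 and -0.32 to 0.23 for Hsph1. The differences of Dnaja1 and Hspa8 from WT kept their sign under all 18 alternatives, as did HET minus WT of Hsp90aa1 (-0.28 to -0.0080). Other expression thresholds, a fit without trend, the replicate block and a fit of only the compared genotypes cannot move a log2 difference. Nor can leaving out a library of the third genotype. Leaving out any 1 library cannot turn the sign of either difference of Dnaja1 from WT, because its WT libraries lie above all others. Single libraries moved the differences of Hspa8 over -0.36 to -0.13 for KO minus WT and -0.33 to -0.11 for HET minus WT.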
